A study of Rattus norvegicus with 38 samples.

Results

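In blood leukocytes of rats, 177 array probes for 176 named genes differed in the same direction 168 h after acetaminophen and 168 h after methyl parathion, each set against the vehicle rats of its own chemical. Of these probes 60 were higher after both chemicals and 117 were lower after both. They were chosen from the deposited log2 values by size: each group mean at 168 h lay at least 0.7 above, or at least 0.7 below, the vehicle mean for both chemicals. On the log2 scale a difference of 1 multiplies the signal by 2. Each probe also had 1 annotated gene symbol and a signal-to-noise ratio of 3 or more, either in all 6 arrays at 168 h or in all 8 vehicle arrays. The 177 came from 2577 probes that met the last 2 conditions, of 6104 probes with 1 symbol and 26857 gene probes on the array. Because the 168 h and vehicle values chose the members, those values are given below as a description, with no test.

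The samples were blood leukocytes of male CDF Fisher 344 rats, about 4 months old, 1 array per rat and 38 rats in all. Rats 168 h after a single intraperitoneal dose of 1200 mg/kg acetaminophen (n = 3) or 15 mg/kg methyl parathion (n = 3) were set against rats given the vegetable oil vehicle (n = 4 for each chemical). Acetaminophen is a pain reliever whose overdose damages the liver, and methyl parathion is an organophosphate insecticide that blocks acetylcholinesterase. Further groups were killed 4, 12 and 24 h after each chemical (n = 4 each). Vehicle rats of both chemicals were killed at 24 h, with none kept to 168 h, so that treatment, time since injection, age and handling cannot be told apart in the 168 h values. The same holds for anything that the 6 rats at 168 h shared. All animals were killed by microwave irradiation of the head, the leukocytes were held on a filter, and the RNA was depleted of globin mRNA.

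Blood leukocyte RNA is a mixture of the RNA of neutrophils, lymphocytes, monocytes and rarer cells, and its composition follows both the number of each cell type and the genes each cell transcribes. Fewer cells of a type and less RNA per cell cannot be told apart in such samples. Dividing precursor cells pass through the blood in small numbers and carry transcripts of the mitotic machinery, such as those of Cdc20, Plk1 and Top2a. Lymphocytes leave lymphoid tissue by way of the receptor S1pr1 and are held or guided by the chemokine receptors Cxcr4, Ccr7 and Cxcr5.

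The median change of the 60 members that were higher at 168 h was 0.94 for acetaminophen and 1.07 for methyl parathion, and that of the 117 lower members was -1.1 and -1.03. Changes of higher members ran between 0.71 and 2.21 for acetaminophen and between 0.71 and 1.94 for methyl parathion. Among the lower members they ran between -2.45 and -0.71 for acetaminophen and between -2.65 and -0.7 for methyl parathion. Pairs of values in parentheses below give the change for acetaminophen and then for methyl parathion. SEs of the changes, from a model of all 38 arrays, had a median of 0.35 for higher members (0.155 to 1.1) and of 0.338 for acetaminophen and 0.337 for methyl parathion among lower ones (0.15 to 0.642). Both changes were 1 or more in size for 14 of the 60 and 43 of the 117. The 2 changes of a probe lay within 0.3 of each other for 39 of the higher and 70 of the lower members. The rule took 2.33% of the 2577 eligible probes as higher and 4.54% as lower, against 2.29% and 4.49% of the 8591 probes that met the signal-to-noise condition with or without a gene name. Of the 60 higher members 45 were above the signal-to-noise limit in all 14 arrays used, as were 61 of the 117 lower ones.

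**Figure D1:**
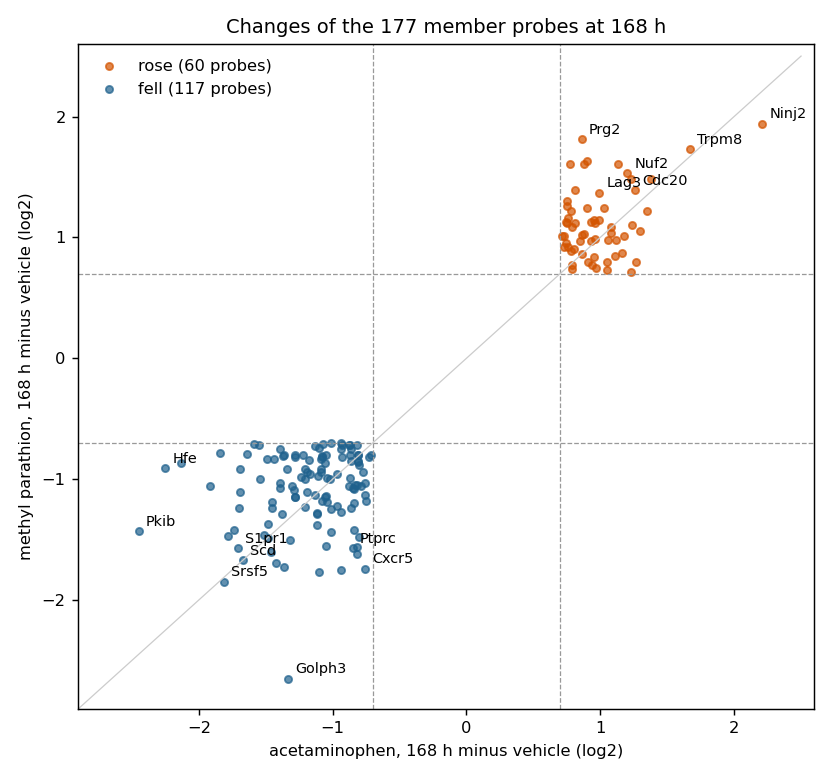
Each point is 1 of the 177 member probes, with its log2 difference between rats at 168 h and vehicle rats for acetaminophen on the horizontal axis and for methyl parathion on the vertical axis. Dashed lines mark the limit of 0.7 that chose the members, and the grey diagonal marks equal changes; Ninj2 lies highest in both and Golph3 lowest for methyl parathion (-2.65).

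For 46 of the 60 higher members every acetaminophen rat at 168 h lay above every vehicle rat, and for 54 every methyl parathion rat did. Both held for 43, and neither held for 3, Kif15, Ccnb2 and Crip2. Over all 12805 probes tested elsewhere in these data, 9.58% lay wholly above vehicle for acetaminophen and 15.9% for methyl parathion. Of the 117 lower members 94 lay wholly below vehicle for acetaminophen, 87 for methyl parathion, 73 for both and 9 for neither, beside 17.8% and 12.3% of all probes. The share of all probes that lay apart from vehicle for both chemicals together was not counted. Since the rule used these same arrays, nothing is read from the counts or from their difference from all probes. Just inside the limit lay Lgals2 (0.706 for acetaminophen and 1.011 for methyl parathion), Usp2 (1.232 and 0.707) and Kifc1 (0.731 and 1.011). Just outside it on the upper side lay Ceacam4 (0.783 and 0.694), Nr1h3 (0.696 and 1.364) and Stk40 (0.696 and 1.083). On the lower side Eef1a1 (-1.009 and -0.7), Gnl3 (-0.94 and -0.705) and Ptpn2 (-0.707 and -0.801) lay just inside. Map2k1 (-0.973 and -0.693), Lypla1 (-0.694 and -0.848) and Or5p78c (-0.695 and -1.356) lay just outside.

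How many members fall on each side depends on the scaling of the arrays. With the deposited quantile normalization the median change of all 12805 tested probes was -0.06 for acetaminophen and -0.08 for methyl parathion. When each array was instead centred on its median, that median was -0.38 and -0.27 and the same rule gave 10 higher and 286 lower probes, so that the share that was higher was 3.38% in place of 33.9%. Single rats also moved the counts: without acetaminophen vehicle rat 2 the rule gave 39 higher probes, and without methyl parathion rat 1 at 168 h it gave 76 lower ones. Control spots of the reverse transcription kit were also higher on average at 168 h. Their log2 level over the gene median of the array averaged 8.70 in acetaminophen rats at 168 h and 8.23 in their vehicle rats, and 8.79 in methyl parathion rats at 168 h and 8.28 in their vehicle rats. Ranges were apart for acetaminophen (8.54 to 8.94 against 8.01 to 8.49) but overlapped for methyl parathion (8.39 to 9.41 against 7.76 to 8.75). In vitro transcription control spots averaged 6.72 against 6.397 for acetaminophen and 6.817 against 6.245 for methyl parathion. Hybridization control spots averaged 7.893 against 8.02 and 7.987 against 8.02. The share of probes above the signal-to-noise limit was 36.4 to 39.4% at 168 h and 38.3 to 45.9% in vehicle rats for acetaminophen, and 36.4 to 40.1% and 40.2 to 51.7% for methyl parathion. The part of labelling and detection in the member changes was not tested.

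Genes of cell division and DNA replication formed 1 of the larger sets among the higher members, with 12 probes for 12 genes. This and the other sets by function were drawn up after the values were seen. Cdc20, which activates the ligase that ends metaphase, had log2 signals of 11.94, 12.91 and 11.66 in acetaminophen rats at 168 h, against 10.85, 10.83, 11.07 and 10.89 in their vehicle rats. In methyl parathion rats at 168 h it had 11.83, 11.97 and 12.95, against 10.36, 10.78, 11.29 and 11.02 in their vehicle rats. All 6 rats at 168 h lay above all 8 vehicle rats, and the changes were 1.26 and 1.39 (SE 0.295 each). Nuf2, a kinetochore protein, had 11.32, 11.49 and 10.46 after acetaminophen, against 9.73, 9.65, 10.11 and 10.08 with vehicle. After methyl parathion Nuf2 had 10.81, 10.95 and 11.78, against 9.87, 9.74, 8.47 and 10.53 with vehicle. The groups did not overlap for either chemical, with changes of 1.2 and 1.53 (SE 0.447), but a second probe of Nuf2, which missed the signal-to-noise condition, differed by 0.45 and -0.06.

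Top2a, the topoisomerase that untangles replicated chromosomes, had 11.01, 11.74 and 10.16 after acetaminophen, against 10.09, 9.52, 10.16 and 8.92 with vehicle. After methyl parathion it had 10.69, 10.37 and 11.35, against 10.04, 9.43, 9.87 and 9.65 with vehicle, and the changes were 1.3 and 1.05 (SE 0.384). One acetaminophen rat equalled the highest vehicle rat to 2 decimals. Plk1, a kinase that drives entry into and passage through mitosis, had 10.72, 10.98 and 9.95 after acetaminophen, against 9.52, 9.63, 10.16 and 9.39 with vehicle, so that these groups overlapped. After methyl parathion Plk1 had 9.76, 10.4 and 11.05, all above the 9.14, 9.72, 8.89 and 9.71 of the vehicle rats. Ccnb2, a B-type cyclin, overlapped with vehicle for both chemicals, with 10.12, 11.0 and 9.58 after acetaminophen against 9.33, 8.55, 9.97 and 8.65. For methyl parathion its values were 8.43, 9.92 and 10.62 against 9.18, 9.3, 8.59 and 8.15 with vehicle. The same rat of each chemical, the second of acetaminophen and the third of methyl parathion, had the highest value of all 5 of these genes. The other 7 genes of the set were the linker histone H1f4 (1.24 and 1.1), Kif15, Stmn1, Lig1, Nucks1, Dctpp1 and Kifc1, and a second probe of Nucks1 differed by 0.42 and -0.3. A second probe of Kifc1, which missed the signal-to-noise condition, differed by 0.08 and 0.45.

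A broader list of cell cycle genes had 22 measured, of which 5 were members (Cdc20, Ccnb2, Plk1, Stmn1 and Top2a), all higher. Its median change was 0.37 for acetaminophen and 0.46 for methyl parathion, beside -0.06 and -0.08 over all tested probes. Of the 22 genes 15 were higher after both chemicals (68.2%) and 2 lower after both, beside 24.9% and 34.2% of all tested probes.

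Promoters of the cell division genes are shown because these members were higher together. In many genes of mitosis, promoters carry CCAAT boxes and a cell cycle homology region (CHR) near the start of transcription. The RefSeq sequences below (build GRCr8) run 250 bases before to 50 bases after the annotated start, read along the gene's strand, with CCAAT or CHR letters in capitals. They stand at chr5:137255750-137256049 on the minus strand for Cdc20, chr8:79981609-79981908 on the minus strand for Ccnb2 and chr1:186147408-186147707 on the plus strand for Plk1.
Cdc20: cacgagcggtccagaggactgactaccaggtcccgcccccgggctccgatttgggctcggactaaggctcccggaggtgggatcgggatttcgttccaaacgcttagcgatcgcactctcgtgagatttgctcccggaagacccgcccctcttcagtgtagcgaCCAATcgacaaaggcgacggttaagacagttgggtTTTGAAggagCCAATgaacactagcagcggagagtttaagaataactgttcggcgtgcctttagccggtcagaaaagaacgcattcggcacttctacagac
Ccnb2: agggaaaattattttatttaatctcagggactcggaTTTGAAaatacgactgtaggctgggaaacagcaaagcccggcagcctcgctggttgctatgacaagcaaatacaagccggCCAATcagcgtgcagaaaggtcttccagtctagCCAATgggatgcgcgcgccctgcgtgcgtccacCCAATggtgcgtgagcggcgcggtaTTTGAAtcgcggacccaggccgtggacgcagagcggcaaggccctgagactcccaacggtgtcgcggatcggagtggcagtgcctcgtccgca
Plk1: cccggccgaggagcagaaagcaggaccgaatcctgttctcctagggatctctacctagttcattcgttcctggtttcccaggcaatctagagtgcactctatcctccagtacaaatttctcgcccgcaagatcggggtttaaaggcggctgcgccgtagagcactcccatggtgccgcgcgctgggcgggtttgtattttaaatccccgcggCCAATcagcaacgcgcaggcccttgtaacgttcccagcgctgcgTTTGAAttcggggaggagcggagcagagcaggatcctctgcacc

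The Cdc20 window held 2 CCAAT and 1 CHR match, the Ccnb2 window 3 and 2, and the Plk1 window 1 and 1, with no match overlapping another. Matches were sought on both strands for CCAAT and, as CHR, TTTGAA or TTCGAA. Of the 12 division genes, all with a promoter in the table, 9 had a CCAAT (75.0%) and 8 a CHR (66.7%). Among 27457 promoters of the same length 37.7% had a CCAAT and 19.5% a CHR, and among 2860 promoters of genes tested on the array 39.7% and 13.1% did. Over the 48 higher members with a promoter, which include the 12 division genes, the shares were 41.7% and 31.2%. Over the 101 lower members with one they were 38.6% and 13.9%. The E2F word TTTNNCGC stood in 4 of the 12 division genes (33.3%), in 8.33% of the higher members, in 10.9% of the lower members, in 7.38% of promoters of tested genes and in 5.19% of all promoters. GATA words (AGATAA or TGATAA) stood in 16.7% of higher and 12.9% of lower members, beside 11.3% of promoters of tested genes and 18.6% of all promoters. The E-box CACGTG stood in 12.5% of higher and 5.94% of lower members, beside 9.2% of promoters of tested genes and 6.65% of all promoters. The interferon-stimulated response element stood in 2.08% of higher and 1.98% of lower members, beside 3.6% of promoters of tested genes and 3.77% of all promoters. Median GC content was 57.8% for higher members and 61.7% for lower members, beside 60.3% for promoters of tested genes. These are counts of letters in a window and do not show binding. The 12 division genes were grouped by function, and genes of mitosis often carry CCAAT and CHR. Their shares therefore say nothing about the changes at 168 h.

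Ninj2, an adhesion protein, and Trpm8, the cold-sensing ion channel, had the largest changes among the higher members by the smaller of the 2 changes of each probe. For methyl parathion alone Prg2 (1.81) lay between them. Ninj2 had 14.41, 14.36 and 13.85 in acetaminophen rats at 168 h, against 10.83, 13.46, 10.18 and 13.52 in their vehicle rats, and 14.22, 14.45 and 14.36 in methyl parathion rats, against 14.01, 10.51, 11.67 and 13.41. Every rat at 168 h lay above its vehicle group, but the vehicle rats themselves spread over more than 3 log2 units, and the changes were 2.21 and 1.94 with an SE of 1.1. Trpm8 had 10.05, 10.06 and 9.78 after acetaminophen, against 7.08, 9.48, 7.52 and 9.1 with vehicle, and 10.0, 9.67 and 10.11 after methyl parathion, against 9.36, 7.0, 6.8 and 9.63. Acetaminophen vehicle rats 2 and 4 and methyl parathion vehicle rats 1 and 4 were the high ones for both genes. Ubxn11 (1.35 and 1.22), Stau2, a protein of RNA transport (1.08 and 1.09), and Osgin1 (0.99 and 1.14) also lay among the 15 largest changes and did not overlap with vehicle.

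Among surface receptors and immune mediators 10 probes were higher. Lag3, an inhibitory receptor of activated T cells, had 12.93, 13.52 and 13.42 after acetaminophen, against 12.21, 11.89, 12.48 and 12.62 with vehicle. After methyl parathion Lag3 had 13.47, 13.72 and 13.07, and its 4 vehicle rats lay close together at 12.0, 12.06, 12.09 and 12.03. Neither pair of groups overlapped, and the changes were 0.99 and 1.37 (SE 0.223). Cd14, the lipopolysaccharide co-receptor of monocytes and neutrophils, was higher by 0.76 and 0.92 (SE 0.336) with no overlap. Its rats at 168 h had 12.67, 12.69 and 12.23 after acetaminophen, against 11.9, 11.48, 11.75 and 11.96, and 12.5, 12.68 and 12.88 after methyl parathion, against 12.0, 11.78, 11.84 and 11.44. P2ry2, a receptor for extracellular nucleotides (1.03 and 1.24), Batf3, a transcription factor of dendritic cells (1.13 and 1.61), Tgfb1, the cytokine, and C2, a complement protease, were further members of this set.

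Mmp9, the gelatinase of neutrophil granules, was 1 of 4 extracellular proteases, with St14, Adam15 (1.23 and 1.48) and Cela1. Mmp9 had 12.29, 12.06 and 12.9 in acetaminophen rats at 168 h, against 11.24, 10.98, 11.45 and 11.66, and 12.17, 12.32 and 12.38 in methyl parathion rats, against 10.98, 10.87, 10.99 and 12.15. The groups did not overlap, though 1 methyl parathion vehicle rat came within 0.1 of the lowest treated rat. Of 12 measured neutrophil markers Mmp9 alone was a member, and the list's median change was 0.41 and 0.36.

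Of the products of mast cells, basophils and eosinophils 3 were higher. Hdc, which makes histamine, had 12.8, 12.78 and 12.45 after acetaminophen, against 11.33, 10.74, 12.02 and 11.55, and 12.32, 12.07 and 12.05 after methyl parathion, against 11.55, 11.76, 9.88 and 12.22, so that the last groups overlapped. Prg2, the major basic protein of eosinophil granules, overlapped for acetaminophen, with 14.29, 15.13 and 13.12 against 13.03, 12.56, 13.72 and 13.98. After methyl parathion Prg2 had 14.64, 14.5 and 15.57, against 12.99, 12.83, 12.56 and 13.96, with no overlap. Cma1, the mast cell chymase, was higher by 0.91 and 0.8 with no overlap. A list of markers of these cells had 7 genes measured, among them Hdc and Prg2 but not Cma1. Its median change was 0.86 after acetaminophen and 0.55 after methyl parathion, with 3 genes higher after both (42.9%) and 1 lower after both, beside 24.9% and 34.2% of all tested probes. The summed signal of the 7 was 405794 to 535971 in acetaminophen rats at 168 h and 89324 to 171271 in their vehicle rats. In methyl parathion rats it was 122123 to 263405 at 168 h and 93094 to 276464 with vehicle, which overlap. In the acetaminophen rats at 168 h 1 marker of the 7 was never above the signal-to-noise limit.

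Hbe1, an embryonic beta-type globin that remained measurable after globin depletion, was higher by 0.86 and 1.02 (SE 0.262) with no overlap. Its rats at 168 h had 13.06, 14.34 and 13.09 after acetaminophen, against 12.19, 12.85, 12.77 and 12.73, and 13.39, 13.16 and 14.21 after methyl parathion, against 12.16, 12.68, 12.76 and 12.65. None of 16 measured erythroid list genes was a member, and their medians were 0.1 and -0.26. Lmna, which encodes lamins A and C of the nuclear lamina, had 13.48, 13.6 and 13.62, against 12.08, 12.61, 12.58 and 12.27, and 13.35, 13.45 and 13.5, against 11.72, 12.49, 12.65 and 12.84. Its set of 8 cytoskeletal and lamina genes also held Palm (1.38 and 1.48), Plec (0.95 and 0.84) and Basp1 (0.78 and 1.22). The rest of the higher members comprised 3 genes of metabolism (Crat, Fabp5 and Naprt), 7 of intracellular signalling, such as Itpkb (1.06 and 0.98) and Mapkapk2 (0.75 and 1.12), and 12 that were not grouped.

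**Figure D2:**
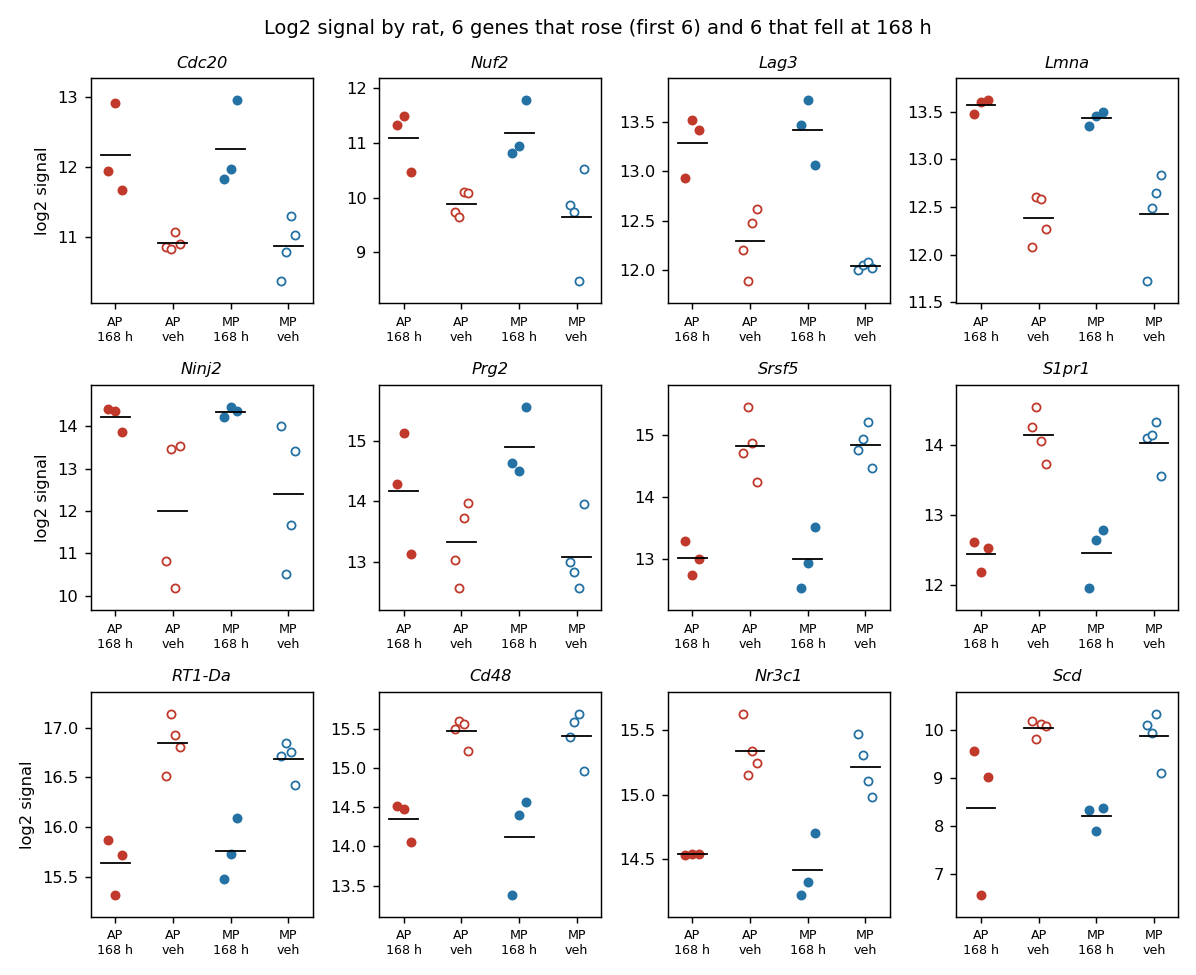
Each point is the log2 signal of 1 rat, filled at 168 h and open for vehicle (veh), red for acetaminophen (AP) and blue for methyl parathion (MP), with a black line at the mean of the group; each panel has its own axis. The 4 vehicle values of Ninj2 spread widely for each chemical, while those of Lag3 for methyl parathion lie between 12.0 and 12.09.

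Among the 117 lower probes the largest set by function was that of leukocyte surface receptors and MHC, with 16 probes for 15 genes. S1pr1, the sphingosine 1-phosphate receptor that lets lymphocytes leave lymph nodes, had 12.62, 12.19 and 12.53 after acetaminophen, against 14.27, 14.55, 14.06 and 13.74 with vehicle. After methyl parathion it had 11.96, 12.65 and 12.79, against 14.11, 14.15, 14.33 and 13.56. Groups were well apart, with changes of -1.71 and -1.57 (SE 0.363). RT1-Da, the alpha chain of an MHC class II molecule, had 15.87, 15.32 and 15.72, against 16.52, 17.14, 16.93 and 16.81, and 15.48, 15.73 and 16.09, against 16.72, 16.85, 16.76 and 16.42, with no overlap. Cd48, an adhesion partner of 2B4, had 14.52, 14.47 and 14.05 after acetaminophen, against 15.5, 15.6, 15.56 and 15.21. After methyl parathion Cd48 had 13.38, 14.4 and 14.57, against 15.39, 15.58, 15.69 and 14.96, also with no overlap.

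Cxcr4, the receptor for CXCL12, was the only gene with 2 member probes. They differed by -1.06 and -1.15 (SE 0.274) and by -0.88 and -0.72 (SE 0.306), and the second overlapped with vehicle for methyl parathion. Of the chemokine receptors, Ccr7 differed by -0.93 and -0.72, Ccr2, a receptor of monocytes, by -1.36 and -0.8, and Cxcr5, a receptor of B cells and follicular helper T cells, by -0.76 and -1.74. Cxcr5 was above the signal-to-noise limit in 1 of 3 rats at 168 h for each chemical. Ccr2 and Ccr7 overlapped for methyl parathion. Ptprc, which encodes the leukocyte common antigen CD45, had 12.75, 12.1 and 12.49 after acetaminophen, against 13.52, 13.31, 13.68 and 12.67, and 10.96, 12.23 and 12.37 after methyl parathion, against 13.58, 13.56, 13.46 and 13.08. The acetaminophen groups overlapped by 1 rat. Cd53, Cd47, Cd164, Hfe, Cr1l, Adgre4 and F2rl2 were the other members.

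Of 13 measured T cell markers 1, Ccr7, was a member. The median changes of the list were -0.81 after acetaminophen and -0.21 after methyl parathion, and 8 of the 13 were lower after both (61.5%, beside 34.2% of all tested probes). Its summed signal was 167221 to 208541 in acetaminophen rats at 168 h and 273988 to 330821 in their vehicle rats, which do not overlap. In methyl parathion rats the sum was 206216 to 253204 at 168 h and 234942 to 312998 with vehicle, which overlap. All 3 measured B cell markers were lower after both chemicals, with medians of -0.97 and -0.32, and none was a member. Their sum was 16003 to 21338 in acetaminophen rats at 168 h and 28506 to 42140 in their vehicle rats, and 22990 to 23878 and 20373 to 35645 for methyl parathion. Of 8 MHC class II genes RT1-Da alone was a member. The list's median changes were -0.49 and -0.14, with 4 genes lower and 2 higher after both chemicals. Of 8 monocyte and dendritic cell markers Cd14 was a higher member and Ccr2 a lower one. That list's median changes were -0.1 and 0.01, with 3 genes higher and 4 lower after both chemicals. Every T cell, B cell and MHC class II marker counted was above the signal-to-noise limit in at least 1 rat of each of the 4 groups. Their part in the lower members was not tested.

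Genes of RNA processing and export had 11 lower members. Srsf5, a splicing factor, had the largest shared difference: 13.29, 12.75 and 13.01 after acetaminophen, against 14.71, 15.46, 14.87 and 14.25, and 12.53, 12.94 and 13.52 after methyl parathion, against 14.76, 14.95, 15.21 and 14.48. The groups lay apart, and the changes were -1.81 and -1.85 (SE 0.275). Rbm45 (-1.78 and -1.47), Hnrnpu (-1.28 and -1.15), Hnrnpk (-1.09 and -0.94) and the helicase Ddx5 (-1.02 and -1.0) were further members, and a second probe of Hnrnpk differed by -0.89 and -0.67. In translation and protein folding 8 genes were lower, among them Eif3e (-1.32 and -1.5), Npm1 (-1.13 and -1.13) and Eef1a1. A second probe of Eef1a1 differed by -0.02 and -0.37.

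The secretory pathway and vesicle traffic gave 15 lower members, 13 of them without overlap for both chemicals, beside 73 of all 117 lower members. The rule used these same arrays and the sets were drawn up after the values were seen. Nothing is therefore read from counts of overlap by set, here or below. Golph3, a Golgi protein, had the largest change for methyl parathion (-2.65). However, it was not above the signal-to-noise limit in any methyl parathion rat at 168 h. Its signal was 6.26-fold lower there, a value that rests on signals under the limit. Others were Magt1 (-1.11 and -0.97), Tram1 (-0.86 and -0.85), the coat receptor Tmed2 (-0.85 and -1.07) and Rab1a (-1.28 and -0.8). Sec61a1, the channel of the endoplasmic reticulum, overlapped in both comparisons and was above the limit in 1 of 3 acetaminophen and 2 of 3 methyl parathion rats at 168 h. Lipid genes had 8 members. Scd, the stearoyl-CoA desaturase, had 9.56, 6.57 and 9.03 after acetaminophen, against 10.19, 9.81, 10.13 and 10.08, and 8.34, 7.9 and 8.38 after methyl parathion, against 10.11, 9.95, 10.34 and 9.1. It was above the limit in no methyl parathion rat at 168 h, and its 3.17-fold lower signal there also rests on signals under the limit. Other members also had no methyl parathion rat above the limit at 168 h. Their signals were lower by 2.35-fold for Rock1, 2.28 for Or6s1, 3.07 for Tox4 and 1.76 for Coq3, on the same basis.

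Nr3c1, the glucocorticoid receptor, was 1 of 6 transcription factors among the lower members, all without overlap for both chemicals, beside 73 of all 117. It had 14.53, 14.54 and 14.54 in acetaminophen rats at 168 h, against 15.63, 15.15, 15.34 and 15.25, and 14.22, 14.32 and 14.7 in methyl parathion rats, against 15.47, 15.31, 15.11 and 14.98. The changes were -0.81 and -0.8 (SE 0.201). Dr1, a repressor of transcription by RNA polymerase II, differed by -1.46 and -1.6. None of 11 measured glucocorticoid-induced genes was a member, with medians of 0.14 and 0.47. Small GTPase signalling had 6 members, with Rap1a, Rap1b, Rasgrp1, Rock1, Pggt1b and Nras. Nras was above the limit in 1 of 3 rats at 168 h for each chemical and overlapped with vehicle for both. Calcium, kinase and phosphatase signalling had 8 members, of which 1 was without overlap for both chemicals, beside 73 of all 117. They included Pkib, an inhibitor of protein kinase A (-2.45 and -1.43), Itpr2, a calcium release channel (-1.38 and -1.29), and 2 calcineurin subunits, Ppp3cb (-0.82 and -1.56) and Ppp3r1 (-1.54 and -1.0). Enzymes of the mitochondria and of other metabolism had 11, with Dlst (-1.74 and -1.42), Pdha1 (-1.04 and -0.99), Oat (-1.69 and -1.11) and Ctsc, the lysosomal cathepsin C (-1.51 and -1.46). The remaining lower members comprised 8 of the cytoskeleton, such as Add3 (-1.48 and -1.49), Dync1i2 (-1.36 and -1.73) and Fez2 (-1.42 and -1.69), 6 of ubiquitin and SUMO, among them Ube2g1 (-1.48 and -1.37), 3 each of membrane transport, of cell death and autophagy, of the nuclear envelope and DNA repair, and ungrouped, and the lymphocyte GTPases Gimap4 and Gimap5. A flagged spot occurred among the 14 arrays for 4 lower members, Hnrnpu, Mdm4, Gimap4 and Gnl3, and leaving flagged spots out of the rule changed no member.

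The earlier rats give values that the rule did not use. Set against vehicle, which shares its arrays with the rule, the median of the lower members was -0.48, 0.13 and 0.06 at 4, 12 and 24 h after acetaminophen and -0.68, -0.69 and -0.46 after methyl parathion. For the higher members the medians were 0.35, 0.29 and -0.02 after acetaminophen and 0.59, 0.68 and 0.57 after methyl parathion. These are descriptions. In 5 comparisons neither of the group means compared came from vehicle or 168 h rats. Each member was tested in them with limma across 12805 probes, with p adjusted by Benjamini-Hochberg over all of these probes. The p-values measure the spread between these rats.

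**Figure D3:**
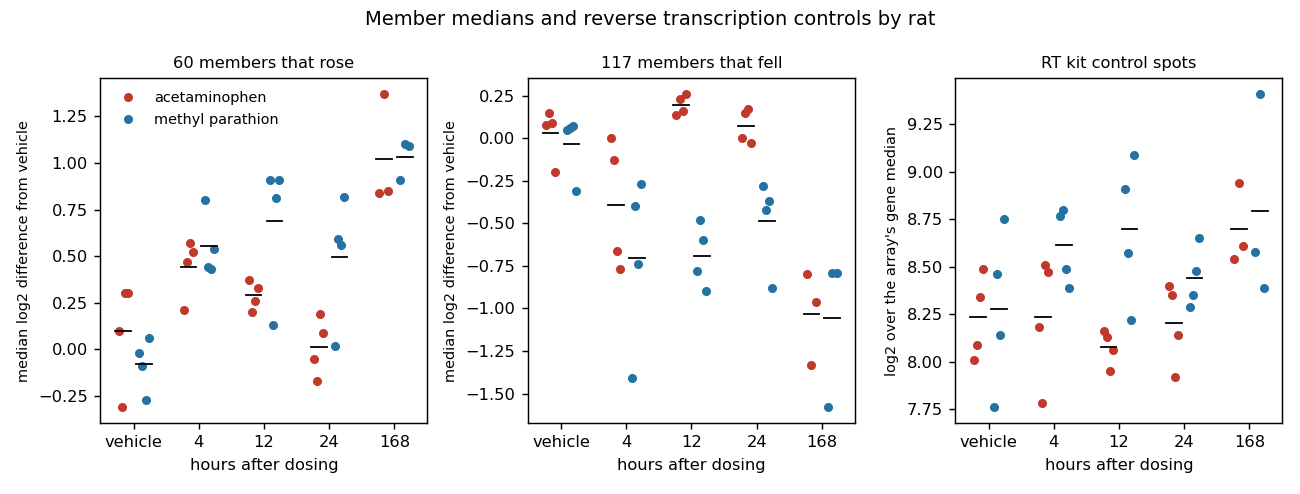
Each point is 1 rat, red for acetaminophen and blue for methyl parathion, with a black line at the group mean. The left and middle panels show the median over the members of the log2 difference from the mean of the 2 vehicle groups, and the right panel the log2 level of the reverse transcription control spots over the gene median; lower members lie near 0 at 12 and 24 h after acetaminophen and below 0 in every methyl parathion rat at those times.

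At 12 h the lower members were mostly higher in acetaminophen rats than in methyl parathion rats. Of the 117, 58 were called higher and 2 lower (Lpxn and Gnl3), beside 14.8% higher and 12.3% lower (27.0% in all) of all probes, and the median difference was 0.86, beside -0.04 over all probes. At 24 h 52 of the 117 were called higher and 1 lower, beside 16.6% and 17.2% (33.8% in all), and the median was 0.62. Of these, 43 were called higher at both times, 74.1% of the calls at 12 h and 82.7% of those at 24 h. The secretory pathway contributed 10 of its 15 members at 12 h and 11 at 24 h, RNA processing 9 and 4 of 11, and surface receptors and MHC 6 and 6 of 16. Not all sets did so: of 8 members of translation and protein folding 2 were called higher and 1 lower at 12 h, and 0 at 24 h. Of the 2 Gimap genes and the 3 ungrouped lower members 0 were called at either time. The sets were drawn up after the values were seen. The higher members divided: 8 were called higher and 13 lower at 12 h, and 13 higher and 20 lower at 24 h. Median centring turned this balance round, with 8 called higher and 5 lower at 12 h, and 16 higher and 12 lower at 24 h. Over all 177, 81.5% of the calls at 12 h and 75.6% of those at 24 h were higher, and 92.9% and 85.9% with median centring. But centring moved all probes upward: the median of all tested probes went from -0.04 to 0.11 at 12 h and from -0.05 to 0.17 at 24 h. With centring 16.5% of all probes were called either way at 12 h and 24.3% at 24 h. Reverse transcription control spots averaged 8.08 at 12 h after acetaminophen and 8.70 after methyl parathion, and 8.20 and 8.44 at 24 h, and their part was not tested.

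**Figure D4:**
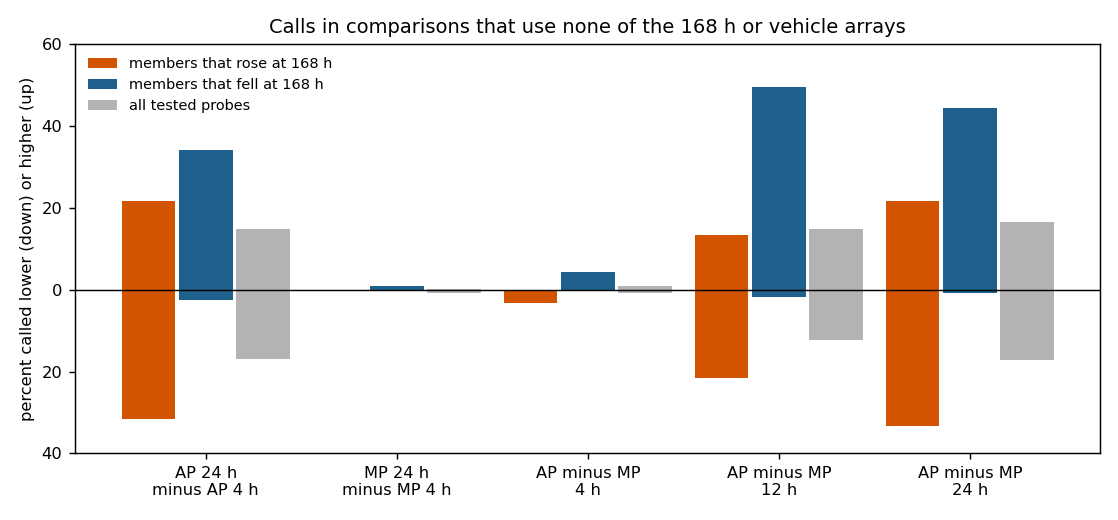
Bars give the percentage of probes called by limma, higher above the line and lower below it, for the members that were higher (rose, orange) and lower (fell, blue) at 168 h and for all tested probes (grey), with AP for acetaminophen and MP for methyl parathion. In the comparisons of the chemicals at 12 and 24 h the lower members were called higher for 58 and 52 of 117 probes.

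Gk, glycerol kinase, had the smallest p at 12 h. It had 13.75, 13.85, 13.47 and 14.0 in acetaminophen rats, against 10.56, 9.65, 10.58 and 10.36 in methyl parathion rats, with no overlap and a difference of 3.48 ± 0.387 (SE, n = 4 each, limma adjusted p = 1.09e-07). Max, the partner of Myc, had 14.64, 14.84, 15.05 and 15.55 against 13.39, 13.13, 12.95 and 12.58 (2.0 ± 0.253, limma adjusted p = 7.23e-07). Cd53, a tetraspanin of leukocytes, had 18.4, 18.34, 18.31 and 18.67 against 16.98, 17.39, 17.1 and 16.98 (1.32 ± 0.176, limma adjusted p = 1.62e-06). These 3 were lower than vehicle at 168 h after both chemicals and were higher in every acetaminophen rat than in every methyl parathion rat at 12 h. At 24 h Cd53 differed by 1.46 ± 0.176 (limma adjusted p = 5.03e-08).

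Mmp9, higher at 168 h, showed the largest difference between the chemicals at 24 h. It had 16.19, 16.19, 16.26 and 16.09 in acetaminophen rats, against 11.67, 11.74, 11.49 and 12.75 in methyl parathion rats (4.27 ± 0.277, limma adjusted p = 5.91e-14), and at 12 h it differed by 2.05 ± 0.277 (limma adjusted p = 1.95e-06). P2ry2 had 14.31, 13.97, 13.99 and 14.32 against 10.58, 10.42, 10.97 and 11.59 at 24 h (3.26 ± 0.293, limma adjusted p = 1.26e-10). Hbe1 went the other way, with 10.37, 10.35, 10.49 and 10.76 in acetaminophen rats at 24 h, against 12.21, 13.1, 12.73 and 12.55 in methyl parathion rats (-2.16 ± 0.243, limma adjusted p = 1.34e-08). In none of these 3 did the groups overlap.

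**Figure D5:**
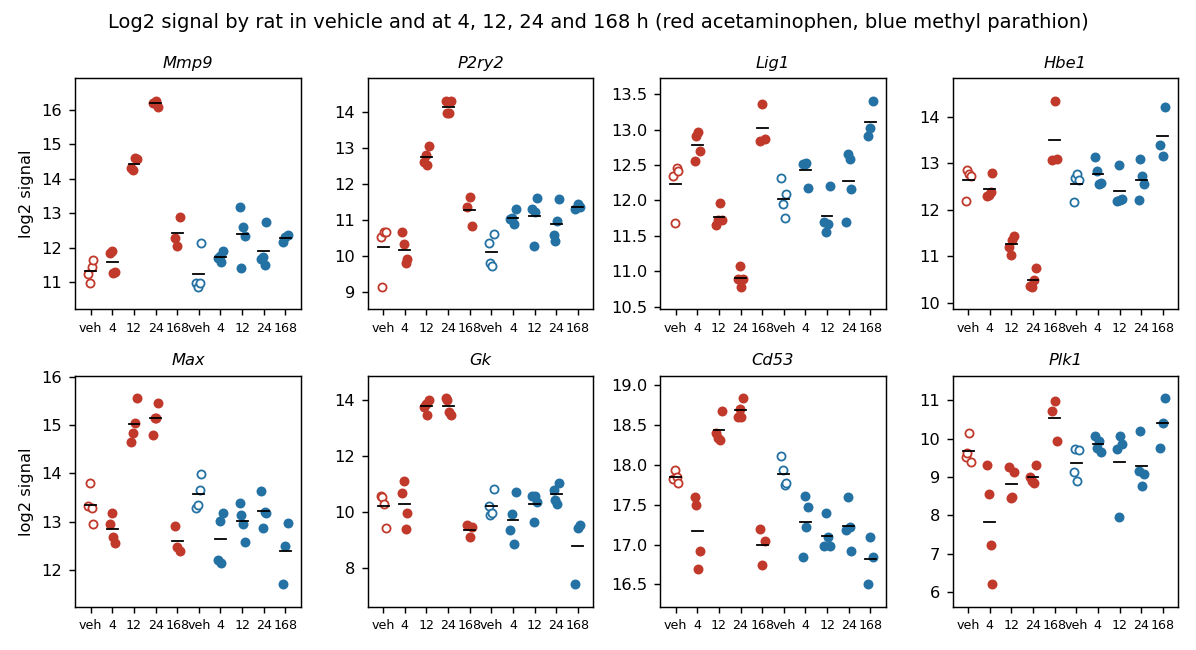
Each point is the log2 signal of 1 rat in vehicle (veh, open) and at 4, 12, 24 and 168 h (filled), red for acetaminophen and blue for methyl parathion, with a black line at the group mean; each panel has its own axis. Mmp9, P2ry2, Max, Gk and Cd53 were high at 12 and 24 h after acetaminophen, where Hbe1 was low. Lig1 was low at 24 h after acetaminophen, while at 12 h it averaged 11.77 after acetaminophen and 11.78 after methyl parathion.

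Within acetaminophen, 24 h was set against 4 h. Of the 117 lower members 40 were called higher at 24 h and 3 lower (Scin, Gimap5 and Bcap31), beside 14.8% and 17.0% (31.8% in all) of all probes. Of the 60 higher members 13 were called higher and 19 lower. Mmp9 differed by 4.6 ± 0.277 (limma adjusted p = 9.29e-15), with 11.85, 11.92, 11.27 and 11.31 at 4 h. P2ry2 differed by 3.96 ± 0.293 (limma adjusted p = 1.16e-12) and Max by 2.29 ± 0.253 (limma adjusted p = 8.38e-09). Lig1, the DNA ligase of replication, had 10.89, 11.07, 10.78 and 10.89 at 24 h, against 12.56, 12.91, 12.97 and 12.7 at 4 h (-1.88 ± 0.191, limma adjusted p = 1.53e-09). Of the 10 groups, 24 h after acetaminophen had the lowest mean of Lig1.

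Within methyl parathion the comparison of 24 h with 4 h called 1 of the 177 members, as higher, beside 0.234% of all probes called higher and 1.02% called either way. It was the second Cxcr4 probe, with 13.33, 12.26, 12.7 and 12.46 at 24 h, against 11.22, 11.9, 10.98 and 12.29 at 4 h. The groups overlapped by 1 rat, the difference was 1.09 ± 0.283 (limma adjusted p = 0.0493), and the call was lost in 6 of 8 fits that left out 1 rat, those without methyl parathion rat 1, 2 or 3 at 4 h or rat 1, 3 or 4 at 24 h. The other Cxcr4 probe differed by 0.83 (limma adjusted p = 0.102). No higher member was called by limma, with 9 of 60 higher and 13 of 117 lower members at an unadjusted p under 0.05, beside 13.8% of all probes.

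Between the chemicals at 4 h 5 lower members were called higher in acetaminophen rats (Bcap31, Pdha1, F2rl2 and both Cxcr4 probes) and 2 higher members lower (Plk1 and Plec), beside 0.851% of all probes called higher and 0.937% called lower (1.79% in all). Bcap31, which escorts proteins out of the endoplasmic reticulum, had 14.76, 15.92, 15.45 and 15.41, against 13.55, 14.17, 14.25 and 14.66 in methyl parathion rats (1.23 ± 0.239, limma adjusted p = 0.0136). Pdha1, a subunit of pyruvate dehydrogenase, differed by 1.07 ± 0.221 (limma adjusted p = 0.0149) and F2rl2, a thrombin receptor, by 1.71 ± 0.405 (limma adjusted p = 0.0254). Plk1 had 9.31, 8.57, 7.22 and 6.2, against 10.07, 9.76, 9.95 and 9.66 (-1.98 ± 0.454, limma adjusted p = 0.0223), with no overlap and a wide spread among acetaminophen rats. The calls at 4 h rested on single rats. Without acetaminophen rat 2 or 3 or methyl parathion rat 1, limma called 0 of the 177 members, without methyl parathion rat 3 it called 1, and without acetaminophen rat 4 or methyl parathion rat 2 it called 3. In these fits limma called at most 0.492% of all probes. Without acetaminophen rat 1 it called 20 members, beside 6.57% of all probes, and without methyl parathion rat 4 it called 11, beside 3.16%. With median centring limma called no member at 4 h, beside 0.00781% of all probes. With quantile normalization the unadjusted p of limma was under 0.05 for 16 of 60 higher and 27 of 117 lower members, beside 15.4% of all probes. The difference between the chemicals in the change between 24 h and 4 h was called by limma for 13 higher members as higher and 12 as lower, and for 15 lower members as higher and 3 as lower, beside 9.78% and 8.6% of all probes.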

How the data were processed

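Applied Biosystems arrays with 1 channel measured the blood leukocyte RNA of 38 rats, each rat on its own array. Per the labels' protocols, RNA was reverse transcribed, transcribed into digoxygenin-labelled cRNA and detected by chemiluminescence. For each probe the authors deposited a signal, which is a linear intensity not scaled between arrays, a signal-to-noise score and a whole-number quality flag. The authors' series table is on the log2 scale, and quantile normalization of the deposited signals gave the same values (median absolute difference 3.4e-10). Scanner settings, slides, scan dates and the array's genome build are not given in the sources used here, so that no batch could be tested.

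Members and their changes at 168 h were taken from the deposited log2 values. The members, gene lists, tests and sets by function were chosen with earlier results of these data known, the sets by function after the members' values were seen. For the tests, signals of 26857 gene probes were quantile-normalized and log2-transformed after low values had been raised to a floor of 84.7 (percentile 5). Values flagged at 5000 or above, 0.9598% of the total, were treated as missing. A probe entered the tests if, in 1 group or more, most arrays had a signal-to-noise ratio of 3 or more and if 2 values remained in each group, which left 12805. All 177 members were among them. The 10 groups formed 1 factor of a linear model (limma 3.58.1, R 4.3.3, trended prior variance), so that all 38 arrays share 1 estimate of the spread. Tests were two-sided, with Benjamini-Hochberg adjustment over the 12805 probes and a threshold of 0.05. SEs of the 168 h changes come from the same model and carry no test. The fit was tested on simulated data.

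Where all arrays of a group were under the signal-to-noise limit, the member is given as a fold. The fold was taken against the higher of its own signal and the lowest signal above the limit on each array. For the folds printed this matched the plain difference of the group means, so that they are not lower bounds. Named genes were the 15 largest changes each way by the smaller of the 2 changes, members of the gene lists, the 4 members with the smallest p in each tested comparison, the 3 probes on each side of the limit and genes with several member probes. Other names were chosen after their values were seen, to show the sets by function. Of the 6104 probes with 1 symbol in the platform annotation, 6081 had a gene in the RefSeq table (GRCr8), from which promoters were taken. Alternatives were another limit, other vehicle groups, median centring, no floor, no detection filter, array weights, the replicate number as a block, fits of 2 groups alone and leaving out each rat. The number of arrays limits the precision.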

Additional observations from a re-analysis of the deposited data

Results flagged for a closer look

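In groups of 4 rats, a value stood apart where its gap to the nearest other rat, as a share of the range of the group, passed the critical value of Dixon's test. This held for 11 of 166 groups looked at, and chance gives about 1 in 20. In methyl parathion vehicle rats, 1 rat stood apart for Mmp9 at 12.15 (the others at 10.87 to 10.99), for Nras at 8.68 (9.94 to 10.01), for Bcap31 at 14.34 (14.7 to 14.74) and for Ctsc at 11.47 (11.67 to 11.7). In the same group the median of the lower members was -0.31 in 1 rat and 0.05 to 0.07 in the others. Among acetaminophen vehicle rats, P2ry2 had 1 rat at 9.15 (10.52 to 10.68) and Lig1 had 1 at 11.68 (12.35 to 12.46). Methyl parathion rats at 12 h had 1 rat apart for Plk1 at 7.96 (9.72 to 10.06), for Hbe1 at 12.96 (12.18 to 12.23) and for the median of the higher members at 0.13 (0.81 to 0.91). At 4 h Lig1 had 1 methyl parathion rat at 12.18 (12.52 to 12.53).

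Between 24 h and 4 h the change differed between acetaminophen and methyl parathion by limma's interaction term for 5 genes named in those comparisons. Those comparisons are the 2 parts of the term, and the genes were named for their small p in them. The calls below are therefore not independent of that choice. The difference was 4.42 ± 0.392 for Mmp9 (limma adjusted p = 4.49e-10) and 4.15 ± 0.414 for P2ry2 (limma adjusted p = 5.32e-09). It was -1.71 ± 0.27 for Lig1 (limma adjusted p = 1.84e-05), 1.71 ± 0.358 for Max (limma adjusted p = 0.000697) and -1.15 ± 0.4 for the second Cxcr4 probe (limma adjusted p = 0.0407). Over all members the term called 25 of 60 higher and 18 of 117 lower ones, beside 18.4% of all probes (9.78% higher and 8.6% lower).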

How the results depend on the processing

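The count of members depended on the limit, the scaling and the signal-to-noise condition. A limit of 1 gave 14 higher and 43 lower probes, median centring 10 and 286, and no signal-to-noise condition 141 and 200. Pooling all 8 vehicle rats gave 84 and 137, and exchanging the vehicle groups 78 and 146, with 59 and 113, then 52 and 109, of the members kept. Leaving out 1 rat at a time gave 39 to 82 higher and 76 to 144 lower probes, with 39 higher without the second acetaminophen vehicle rat and 76 lower without the first methyl parathion rat at 168 h. Of the members 22 higher and 46 lower ones remained in each of these 14 fits.

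In the tests, the 75 members called for acetaminophen 24 h against 4 h ranged over 57 to 79 when 1 rat was left out, the 81 at 12 h over 67 to 77 and the 86 at 24 h over 70 to 86. In the same fits the shares called over all probes ranged over 26.6 to 30.6%, 20.6 to 25.5% and 29.6 to 35.8%. The counts of these 3 comparisons stayed within 1.5 times under each alternative run. The single call for methyl parathion 24 h against 4 h was lost (0) with median centring, no detection filter, array weights, the replicate block and the 2 groups alone. It ranged over 0 to 3 without 1 rat, beside 0.0 to 2.85% of all probes. The 7 calls at 4 h became 0 with median centring and with the 2 groups alone and 27 with array weights. Over all probes these settings called 0.00781%, 0.0% and 7.57%. Without 1 rat the calls at 4 h ranged over 0 to 20, beside 0.0 to 6.57% of all probes. No gene named in a test changed its direction in 238 repeats of 17 tests, and 37 repeats lost the call, all for the Cxcr4 comparison in methyl parathion rats or the 4 genes at 4 h.

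Rat numbers did not pair the samples: deviations of same-numbered rats correlated at -0.3 to 0.36, and no comparison had every value above 0.1. With the replicate block 75, 0, 7, 78 and 85 members were called in the 5 comparisons, in the order acetaminophen 24 h against 4 h, methyl parathion 24 h against 4 h, and the chemicals at 4, 12 and 24 h. Over all probes 31.7%, 1.05%, 1.59%, 26.7% and 33.9% were called, in the same order. The causes of these shifts were not tested. Dim probes limit the precision: 61 of 117 lower members were above the signal-to-noise limit in all 14 arrays.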

Other observations

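Outside the vehicle groups Ninj2 and Trpm8 also split the rats of a group. At 4 h after acetaminophen Ninj2 had 10.55, 10.81, 13.29 and 13.55, and Trpm8 had 7.52, 7.37, 8.88 and 9.54. In acetaminophen rats at 12 h Ninj2 had 11.65, 11.65, 14.94 and 14.52, and Trpm8 had 7.14, 6.46, 9.87 and 10.04. At 12 h after methyl parathion Ninj2 had 15.23, 13.96, 11.74 and 11.63, and Trpm8 had 10.0, 9.37, 7.1 and 6.68. At 4 h after methyl parathion Ninj2 had 14.47, 14.64, 10.89 and 10.37, and Trpm8 had 9.87, 9.81, 6.37 and 7.25. The same rats were high for both genes in these groups. At 24 h after acetaminophen they were not: Ninj2 had 11.54, 11.21, 14.71 and 13.3, while Trpm8 had 7.3, 7.47, 10.0 and 7.06, so that rat 4 was high for Ninj2 and low for Trpm8. At 24 h after methyl parathion Ninj2 had 12.36, 14.5, 14.2 and 12.65, and Trpm8 had 8.12, 9.77, 9.69 and 8.19. All 6 rats at 168 h were high for both genes. Crcp, another higher member, was high in the same rats as Ninj2. It had 13.93, 14.86, 13.77 and 14.86 in acetaminophen vehicle rats. At 12 h it had 13.37, 13.33, 14.36 and 14.4 after acetaminophen and 15.24, 15.06, 14.02 and 13.9 after methyl parathion. Rats at 168 h had 14.9, 15.75 and 15.19 after acetaminophen and 15.13, 15.24 and 15.06 after methyl parathion. Whether other members split in this way was not tested.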
